A study of Mus musculus with 6 samples.

Results

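The chemokine receptor CCR1 and its nearest relatives were examined on Clariom S arrays of ID8 cells, a mouse line derived from ovarian surface epithelium. The genes were taken by symbol from the platform annotation, and all 9 of them, the receptors Ccr1, Ccr1l1, Ccr2 and Ccr3 and the chemokines Ccl3, Ccl5, Ccl6, Ccl8 and Ccl9, had 1 probe set each. They are 9 of 19505 genes named on the array, which holds 22206 probe sets. ID8 cells kept for 24 h without serum were exposed to recombinant CCL6 protein at 200 ng/mL for 6 h (CCL6, 3 arrays) or received no chemokine (unstimulated, 3 arrays), and the 3 cultures of a group are called biological replicates by the labels. All values come from 1 cell line in culture, with no animal, no receptor knockout and no other time point. The comparison was made to find signalling that follows CCL6 at CCR1 in these cells.

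CC chemokines are small secreted proteins that guide leukocytes by binding receptors with a seven-helix fold on the cell surface. The receptors pass the signal to inhibitory G proteins, whose subunits act on phospholipase C, phosphoinositide 3-kinase and small GTPases that move the cytoskeleton, and arrestins and receptor kinases then end it. CCR1 is best known from monocytes, macrophages and neutrophils. CCL3, CCL5, CCL6 and CCL9 bind it in mice. In the mouse genome Ccr1, Ccr1l1, Ccr3 and Ccr2 lie next to each other in that order, and Ccl5, Ccl9, Ccl6 and Ccl3 form another such run, without any other protein-coding gene between them in the RefSeq table of GRCm38.p6. Ccl8 lies apart from them, between Ccl12 and Ccl1.

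Of the 9 genes, only Ccl6 and Ccl9 read above background in ID8 cells. Background was taken from 1091 probe sets of olfactory receptors, which these cells are not thought to use, as the 95th percentile of their mean value over the 6 arrays, 4.75 on the log2 scale. For 12876 of all 22206 probe sets a group mean lay above this level. The other 7 genes, Ccr1 among them, gave 42 readings between 2.49 and 4.68, and 0 of these exceeded the same percentile on its own array, which ran from 4.91 to 5.22. Their means lay between percentiles 4.31 and 59.7 of the olfactory receptors, whereas Ccl6 and Ccl9 each lay at percentile 99.9. An array reading at background leaves it unknown whether few copies of a transcript are there, and other assays of the study, not analysed here, found CCR1 in ID8 cells.

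**Figure D1:**
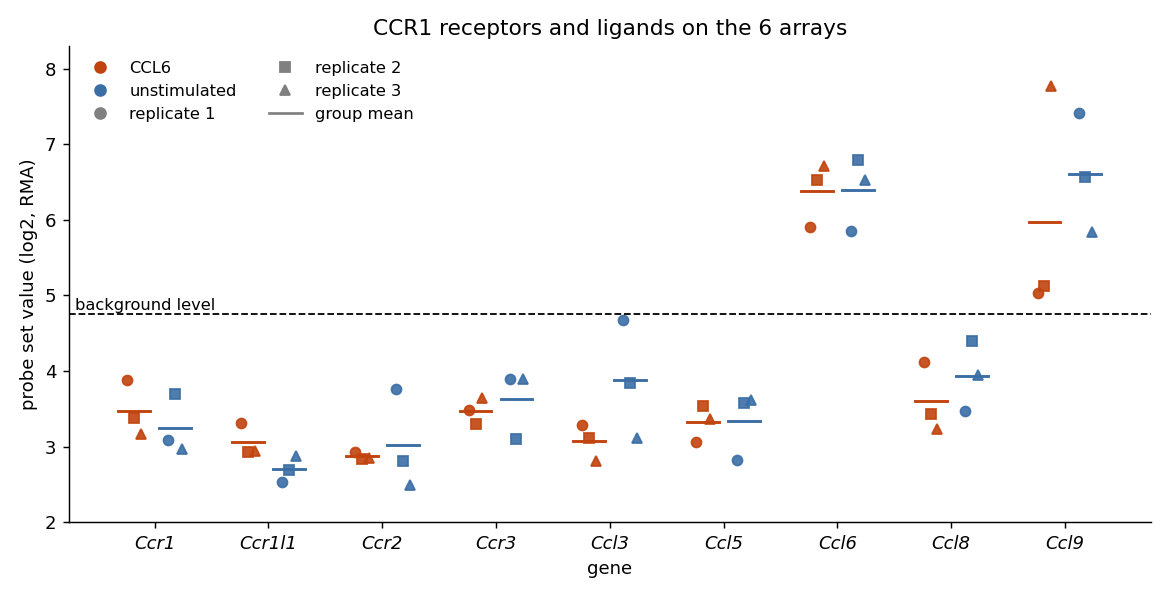
Log2 value of the probe set of each gene (vertical axis) on the 3 CCL6 arrays (red, left) and the 3 unstimulated arrays (blue, right), with marker shapes for replicate numbers, bars for group means and a dashed line at the background level of 4.75. Every array of Ccl6 and Ccl9 lies above the line and every array of the other 7 genes below it, and the Ccl9 readings spread from 5.03 to 7.78.

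The regions around the start sites of Ccl6 and Ccl9 are shown because these neighbours were the genes above background. They run from 250 bases before to 50 bases after the RefSeq start, on the minus strand of GRCm38.p6, at chr11:83593038-83593337 for Ccl6 and chr11:83578587-83578886 for Ccl9. Capitals mark the stretch that a local alignment paired between them.
Ccl6: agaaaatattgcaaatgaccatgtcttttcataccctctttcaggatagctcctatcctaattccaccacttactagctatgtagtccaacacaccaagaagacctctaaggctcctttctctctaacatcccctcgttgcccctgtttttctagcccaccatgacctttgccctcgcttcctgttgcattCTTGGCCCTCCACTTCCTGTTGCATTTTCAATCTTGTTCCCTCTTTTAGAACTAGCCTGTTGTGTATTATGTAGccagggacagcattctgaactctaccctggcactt
Ccl9: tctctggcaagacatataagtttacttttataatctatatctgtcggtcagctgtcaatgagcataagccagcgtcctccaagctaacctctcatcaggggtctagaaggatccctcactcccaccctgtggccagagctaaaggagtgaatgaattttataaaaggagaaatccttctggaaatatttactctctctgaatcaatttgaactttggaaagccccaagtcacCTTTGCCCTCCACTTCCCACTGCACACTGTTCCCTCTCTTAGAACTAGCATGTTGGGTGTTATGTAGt

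The capitals cover 74 bases of Ccl6 and 67 bases of Ccl9, and 58 of 74 aligned columns were identical (78.4%). They begin 59 bases before the start of Ccl6 and 18 bases before that of Ccl9. A promoter entry was found for 8 of the 9 genes. Over the 28 pairs of these the alignment score was 38 for Ccl6 with Ccl9 and 18 for the next pair, Ccr3 with Ccl8. The probe sequences were not used here, so whether either probe set also reads the other transcript was not tested. Searched on both strands, the AP-1 motif TGANTCA was found in 3 of 8 promoters (Ccr1l1, Ccr3 and Ccl9) and in 7.81% of all 32851, the NF-kB motif in 4 (Ccr1, Ccr1l1, Ccr3 and Ccl9) and in 50.8%, and the TATA box TATAAA in 3 (Ccr1l1, Ccl8 and Ccl9) and in 13.6%. The ETS core AGGAAG was found in 2 (Ccl6 and Ccl8) and in 35.4%, and the STAT6 motif and the C/EBP motif TTGCNNAA in 0 of the 8 and in 6.95% and 10.8%. No matches of different motifs overlapped in these 8 windows. A match is a string of letters and was not tested as a binding site.

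No change was detected in any of the 9 genes after CCL6. With limma, 0 of 9 passed an adjusted p under 0.05 and 0 of 9 an unadjusted p under 0.05, where 0% and 3.08% of all probe sets did, and the methods' t-test gave 0 of 9 at both thresholds. Adjusted p was 0.999 for every one of them. In 4 of 128 recomputed values, 3 of Ccl3 and 1 of Ccl9, the unadjusted p was under 0.05, and in 0 the adjusted p. The log2 difference was positive for 2 genes and negative for 7, with a median of -0.15 beside -0.01 over all probe sets. The 95% intervals reached from 0.55 to 1.63 to either side of the difference with 3 arrays per group, and smaller differences could not be told from 0. The p-values measure the spread between these cultures.

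**Figure D2:**
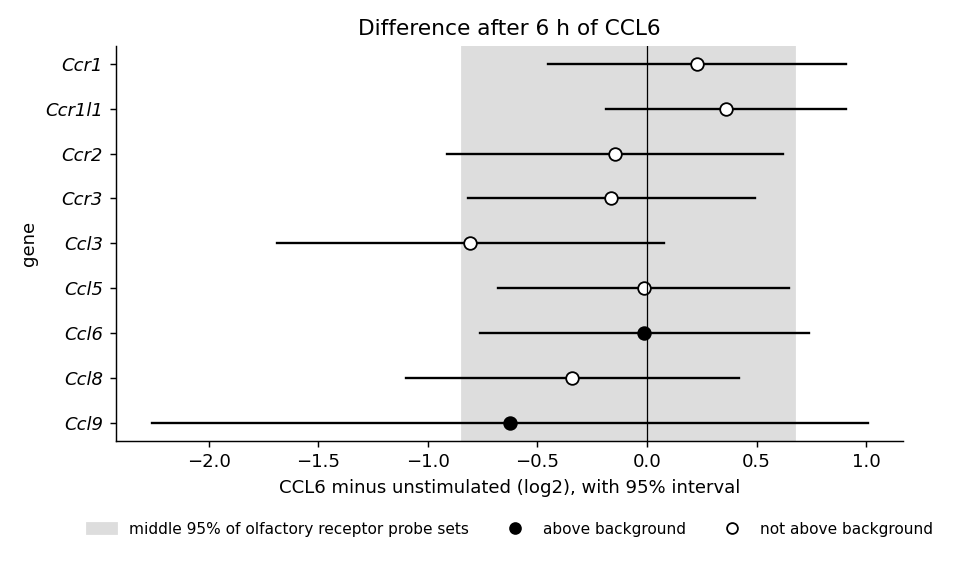
Difference between CCL6 and unstimulated cells on the log2 scale (horizontal axis) for each gene, with its 95% interval from limma. Filled circles are genes above background, open circles genes not above it, and the grey band holds the middle 95% of olfactory receptor probe sets, from -0.84 to 0.68; every interval spans 0 and every point lies inside the band.

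Ccr1, which encodes a receptor for CCL6, read 3.88, 3.37 and 3.17 in CCL6 cells and 3.08, 3.69 and 2.97 in unstimulated cells. The groups overlapped, with the highest reading on CCL6 replicate 1, the next on unstimulated replicate 2 and the lowest on unstimulated replicate 3. The mean was 3.47 ± 0.36 in CCL6 cells and 3.25 ± 0.39 in unstimulated cells (SD, n = 3 each), a log2 difference of 0.23 with an interval from -0.45 to 0.91 (SE 0.30, limma unadjusted p = 0.467). Without CCL6 replicate 1 the difference was 0.025. No fold is given for Ccr1 or for the other genes at background, since both group means lay at the level of unused genes.

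Ccr1l1, a close relative of Ccr1 found in mice, read 3.31, 2.93 and 2.94 in CCL6 cells against 2.53, 2.70 and 2.88 in unstimulated cells. It was the 1 gene of the 9 whose groups did not overlap, which held for 8.19% of all probe sets (3.77% with CCL6 higher) and 9.53% of the olfactory receptors. The gap between the groups was narrow, the difference was 0.36 (SE 0.24, limma unadjusted p = 0.171), and the mean over the 6 arrays lay at percentile 4.31 of the olfactory receptors.

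Ccr2, the monocyte receptor for CCL2, read 2.93, 2.84 and 2.85 in CCL6 cells and 3.77, 2.81 and 2.49 in unstimulated cells. The CCL6 arrays fell within the range of the unstimulated ones. The difference was -0.15 (SE 0.34), and it turned to 0.225 without unstimulated replicate 1, the highest array. Ccr3, the eotaxin receptor of eosinophils, read 3.48, 3.29 and 3.64 in CCL6 cells and 3.90, 3.10 and 3.90 in unstimulated cells, with a difference of -0.16 (SE 0.29). Across these 4 receptor genes the readings lay between 2.49 and 3.90, all below the background level.

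Endogenous Ccl6, the transcript of the chemokine that was added as protein, read 5.91, 6.52 and 6.71 in CCL6 cells and 5.86, 6.80 and 6.53 in unstimulated cells. It was above the olfactory receptor percentile on 6 of 6 arrays, and the lowest array of each group was replicate 1. The means were 6.38 ± 0.42 in CCL6 cells and 6.39 ± 0.48 in unstimulated cells (SD, n = 3 each). The difference was -0.01 (SE 0.33, limma unadjusted p = 0.972) with an interval from -0.76 to 0.74, which covers a ratio of CCL6 to unstimulated cells between 0.590 and 1.67.

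Ccl9, a chemokine of the same subgroup that also signals through CCR1, varied more between arrays of a group than the other 8 genes. It read 5.03, 5.12 and 7.78 in CCL6 cells and 7.41, 6.56 and 5.83 in unstimulated cells. CCL6 replicate 3 was the highest of all arrays and CCL6 replicates 1 and 2 the lowest, so that the unstimulated arrays lay inside the CCL6 range. The means were 5.98 ± 1.56 in CCL6 cells and 6.60 ± 0.79 in unstimulated cells (SD, n = 3 each). The difference of -0.63 (SE 0.72, limma unadjusted p = 0.406), or 1.54-fold lower in CCL6 cells, had an interval from -2.26 to 1.01. Without CCL6 replicate 3 the difference was -1.53 (limma unadjusted p = 0.00887, adjusted p = 0.956), and over all single arrays left out it ran up to -0.15. On CCL6 replicate 1 the reading of 5.03 did not exceed that array's own olfactory receptor percentile of 5.07. The SD within groups, 1.24, was above that of 98.7% of the 12876 probe sets above background, and for Ccl6 the share was 63.6%.

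The arrays with high Ccl9 were the same 3 that stood together on the first principal component of the probe sets above background, computed without the 9 genes and holding 50.1% of the variance. CCL6 replicate 3 scored -40.7 and unstimulated replicates 1 and 2 scored -34.5 and -29.7, with Ccl9 at 7.25 on average. CCL6 replicates 1 and 2 scored 23.4 and 34.9 and unstimulated replicate 3 scored 46.6, with Ccl9 at 5.33 on average. The component did not separate the treatments. Within the negative set Ccl9 was at 7.78 in the 1 CCL6 array and 6.99 on average in the 2 unstimulated arrays, and within the positive set at 5.08 on average in the 2 CCL6 arrays and 5.83 in the 1 unstimulated array. With a block for these sets, added after the data were seen, the difference of Ccl9 was 0.016 (SE 0.39). The part of this component in the Ccl9 readings was not tested. Ccl6 did not split this way, at 6.45 on average in the negative and 6.32 in the positive set, and Ccr1 read 3.31 and 3.41 there. The negative set minus the positive set was 0.60 for Ccl3 and 0.39 for Ccr2, both at background. For Ccr1l1, Ccr3, Ccl5 and Ccl8 it lay between -0.32 and -0.01.

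**Figure D3:**
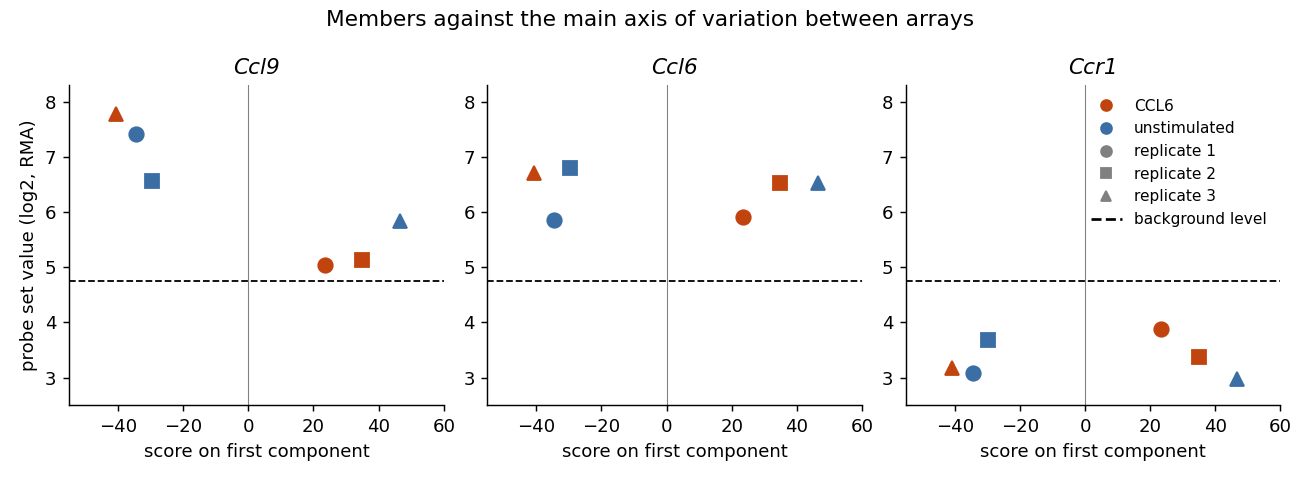
Log2 value of Ccl9, Ccl6 and Ccr1 (vertical axes) against the score of each array on the first principal component (horizontal axes), for CCL6 (red) and unstimulated (blue) arrays, with the background level dashed. Ccl9 lies between 6.56 and 7.78 on the 3 arrays with negative scores and between 5.03 and 5.83 on the 3 with positive scores, whereas Ccl6 and Ccr1 show similar readings on both sides.

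The inflammatory chemokine Ccl3, also known as MIP-1 alpha, had the difference of largest size among the 9, though at background. It read 3.29, 3.12 and 2.80 in CCL6 cells and 4.68, 3.84 and 3.11 in unstimulated cells. Unstimulated replicate 1 was the highest array, and unstimulated replicate 3 overlapped the CCL6 arrays. The difference was -0.81 (SE 0.39, limma unadjusted p = 0.0685). It was -0.40 without unstimulated replicate 1 and -1.19 without unstimulated replicate 3 (limma unadjusted p = 0.00687, adjusted p = 0.914). The T cell chemokine Ccl5, known as RANTES, read 3.07, 3.53 and 3.37 in CCL6 cells and 2.82, 3.57 and 3.62 in unstimulated cells, a difference of -0.02 (SE 0.29). Ccl8, whose human counterpart binds CCR1, read 4.13, 3.43 and 3.24 in CCL6 cells and 3.47, 4.39 and 3.95 in unstimulated cells, a difference of -0.34 (SE 0.33). The groups overlapped for both.

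Among other CC chemokines and receptors that share partners with these genes, 3 of 9 measured read above background, namely Ccl2, Ccl4 and Ccl7. For all probe sets this was 12876 of 22206. Ccl2, the main monocyte attractant, averaged 8.27 ± 0.27 in CCL6 cells and 8.29 ± 0.81 in unstimulated cells (SD, n = 3 each). Ccl4, which adjoins Ccl3, differed by -0.30 (SE 0.49). Ccl7 differed by -0.15 (SE 0.36) with a CCL6 mean of 4.73 at background. At a limma unadjusted p under 0.05 there were 0 of these 9 genes, against 3.08% of all probe sets. The median difference of the 9 was -0.07. The decoy receptor genes Ackr1 and Ackr2 were not above background.

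Of 28 measured genes of G proteins and effectors downstream of such receptors, 21 read above background, beside 12876 of all 22206 probe sets. Among the 21 was the inhibitory subunit gene Gnai2, at 14.96 in CCL6 cells and 14.90 in unstimulated cells. The 7 others included genes best known from leukocytes, such as Pik3cg, Rac2, Dock2 and Vav1. With limma 0 of 28 passed an adjusted p under 0.05, and 2 passed an unadjusted p under 0.05, both higher, against 3.08% of all probe sets. Of the list 13 genes had a positive and 15 a negative difference, with a median of -0.03. The G protein gamma subunit gene Gng12 read 12.79, 13.01 and 12.51 in CCL6 cells and 11.99, 12.32 and 11.92 in unstimulated cells. Groups without overlap were found for 2 of the 28 genes, Gng12 and Pik3r5, beside 8.19% of all probe sets. The difference of Gng12 was 0.69 (SE 0.25, 1.62-fold, limma unadjusted p = 0.0224, adjusted p = 0.999). Ptk2b, the focal adhesion kinase relative PYK2, read 5.04, 5.84 and 4.86 in CCL6 cells and 4.08, 4.88 and 4.10 in unstimulated cells, so that the groups overlapped. Its unstimulated mean lay at background and its readings exceeded the olfactory receptor percentile of their own array on 1 of 6 arrays, so no fold is given for the difference of 0.89 (SE 0.35, limma unadjusted p = 0.0310, adjusted p = 0.999). Pik3r5, a regulatory subunit of phosphoinositide 3-kinase gamma, exceeded it on 2 of 6 arrays and differed by 0.44 (SE 0.24, limma unadjusted p = 0.101), with its unstimulated mean at background too.

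Of 14 measured genes that limit receptor signalling 8 read above background, beside 12876 of all 22206 probe sets. With limma 0 of the 14 passed an adjusted or an unadjusted p under 0.05, where 0% and 3.08% of all probe sets did. Differences were positive for 8 and negative for 6, with a median of 0.08. The arrestin gene Arrb1 was at 10.41 in CCL6 cells and 10.34 in unstimulated cells. Rgs10, which speeds the shut-off of G proteins, averaged 10.28 ± 0.25 in CCL6 cells and 10.89 ± 0.46 in unstimulated cells (SD, n = 3 each), with overlap. The receptor kinase gene Grk5 differed by 0.60 (SE 0.38) and Rgs3 by 0.56 (SE 0.38), both with overlapping groups. A block for the sets of the first principal component was added after the data were seen. These sets were defined from the same arrays, and Rgs10, Grk5 and Rgs3 were among the probe sets used. P-values with this block are therefore a description and not a test. With it Rgs10 differed by -0.80 (limma unadjusted p = 0.00881) and Grk5 by 0.88 (limma unadjusted p = 0.0115). Rgs3 differed by 0.30 with it (limma unadjusted p = 0.346). The adjusted p from limma was 0.795 for Rgs10 and for Grk5 and 0.880 for Rgs3. Over all probe sets this block gave 1365 at an unadjusted p under 0.05, against 685 without it.

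**Figure D4:**
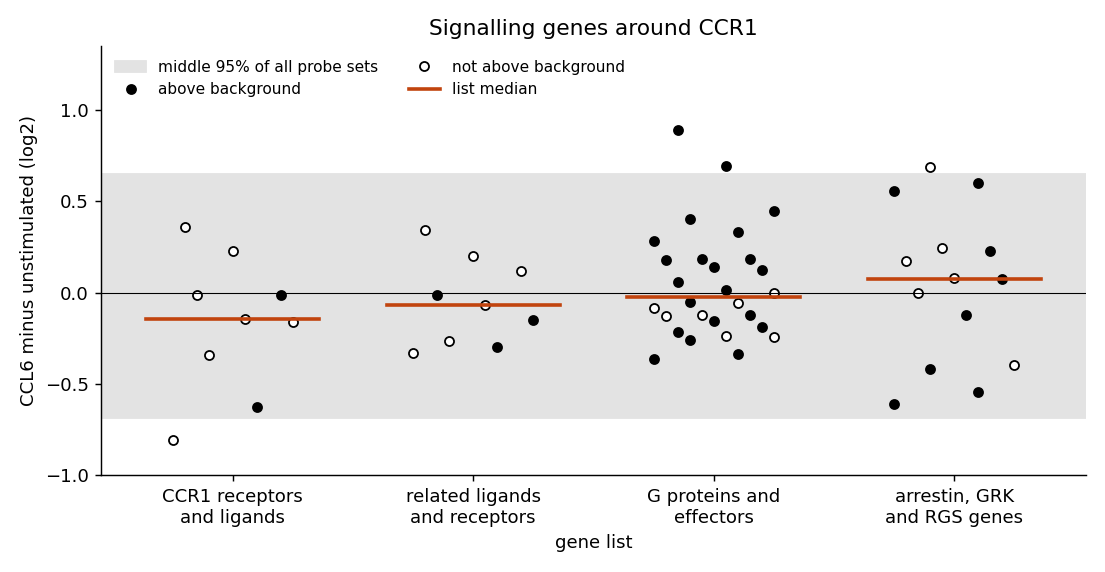
Difference between CCL6 and unstimulated cells on the log2 scale (vertical axis) for each measured gene of 4 lists (horizontal axis), with list medians as red bars, filled circles for genes above background and open circles for the others. The grey band holds the middle 95% of all probe sets, from -0.69 to 0.65, and the list medians lie between -0.15 and 0.08.

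Most markers listed for the labelled cell type read above background. Of 11 measured keratin, cadherin, mesothelial and epithelial markers 10 did so, beside 12876 of all 22206 probe sets. Krt8 was at 13.19 in CCL6 cells and 13.25 in unstimulated cells, and Krt18 at 14.50 in CCL6 cells and 14.76 in unstimulated cells. The mesothelial factor gene Wt1 was at 14.63 in CCL6 cells and 14.68 in unstimulated cells. The exception among the 11 was Epcam. Whether these markers set the line apart from other epithelial or mesothelial cells was not tested. Krt7 was near background, at 5.09 in CCL6 cells and 4.78 in unstimulated cells. It exceeded the olfactory receptor percentile of its own array on 2 of 6 arrays. Of 14 measured leukocyte markers 1 read above background, beside 12876 of all 22206 probe sets. This was Cd14, at 7.45 in CCL6 cells and 7.58 in unstimulated cells. The defining leukocyte and macrophage genes Ptprc, Adgre1 and Csf1r exceeded the olfactory receptor percentile on 0 of 6 arrays, whereas the macrophage receptor genes Mrc1 and Fcgr1 did so on 2 arrays and 1 array. The 8 markers left besides Cd14 did so on 0. The log2 of the summed linear values of the 14 markers ran from 8.15 to 8.75 in CCL6 cells and from 8.17 to 8.84 in unstimulated cells. Cd14 alone read 7.94 and 8.21 on the arrays with the highest sums, CCL6 replicate 1 and unstimulated replicate 2. It read 6.63 and 6.66 on those with the lowest, CCL6 replicate 2 and unstimulated replicate 3. The other markers had group means at background, so the sums were not taken as leukocyte content. Fewer expressing cells and less RNA per cell cannot be told apart in such bulk samples.

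As a description of pattern, the genes above background whose deviations from their own mean were closest to those of Ccr1 over the 6 arrays were Rapgef6, Tef and Mogat1, with mean absolute differences of 0.063, 0.068 and 0.082 on the log2 scale among 11559 named probe sets. For Ccl6 they were Zfp995, Arhgap27 and Apc at 0.062, 0.065 and 0.076. For Ccl9, added after the data were seen, they were Il15, Syn1 and Acot3 at 0.14, 0.23 and 0.25. Il15, a cytokine of natural killer and memory T cells, read 4.61, 4.69 and 7.33 in CCL6 cells and 7.27, 6.01 and 5.04 in unstimulated cells, high on the same 3 arrays as Ccl9. Ccr1 itself deviated by only 0.29 on average and read at background.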

How the data were processed

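Total RNA of 6 ID8 cultures was hybridised to Clariom S mouse arrays. The authors deposited RMA values, read here as log2. The RMA version and genome build are not given in the sources used here, and the log base was inferred from the range of 1.93 to 19.2. RMA equalises the distributions of arrays, so a shift shared by most transcripts would go unseen. Array medians ran from 5.42 to 5.49. Precision is limited by the small number of arrays. The platform annotation gave 1 symbol for 19572 of 22206 probe sets, several for 0 and none for 2634. A detection call per probe was not used here.

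CCL6 was compared with unstimulated cells in 1 fit of all 22206 probe sets with limma 3.58.1 in R 4.3.3 (lmFit and eBayes, two-sided, Benjamini-Hochberg adjustment over all probe sets, threshold 0.05). No array test is described in the methods, and the methods' t-test for grouped data was run as an alternative. A gene was above background when a group mean exceeded the 95th percentile of olfactory receptor means. Other alternatives were quantile normalization, cyclic loess, median centring, a variance trend, array weights, a replicate block, other background levels and leaving out each array. Local alignments used Biopython 1.88 (match 1, mismatch -1, gap opening -3, extension -1). The code of the fit was checked on simulated arrays with independent noise in each probe set. Those lack the component shared by probe sets of the real arrays, so the fit was not tested under it.

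Named were the 9 genes, up to 3 genes above background with the smallest unadjusted p in each of 3 lists, 6 markers and the 3 genes nearest in pattern to Ccr1 and to Ccl6. Other genes named, Gnai2, Pik3cg, Rac2, Dock2, Vav1, Arrb1, Ackr1, Ackr2, Epcam, Krt7, Mrc1, Fcgr1 and Cd14, were chosen after their values were seen. The members and lists were chosen with earlier results of these data known. The other list genes are given by counts, and 8 without a named probe set are not analysed here.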

Additional observations from a re-analysis of the deposited data

How the results depend on the processing

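None of the 9 genes passed an adjusted p under 0.05 in 128 recomputed values, whose adjusted p ran from 0.813 upwards, and 114 of them kept the sign. The unadjusted p from limma was under 0.05 for Ccl3 with array weights (difference -0.93), with the replicate block (-0.81) and without unstimulated replicate 3, and for Ccl9 without CCL6 replicate 3. Signs turned for Ccr2, Ccl5, Ccl6 and Ccl9, of which Ccl9 alone had a difference of over 0.15 in size. The 7 genes at background have no value in the fit of probe sets above background. Ccl5 differed by 0.021 after quantile normalization, 0.026 after cyclic loess, 0.0063 after median centring and 0.027 with array weights, and Ccl6 by 0.0094 after median centring and 0.037 with the array set block. With that block, added after the data were seen, Ccl9 differed by 0.016, Ccl7 by 0.10 and Ccl2 by 0.17, and Ccl2 by 0.0067 after median centring. With 1 array left out, the range was -0.41 to 0.225 for Ccr2, -0.27 to 0.13 for Ccl5, -0.28 to 0.22 for Ccl6, -0.48 to 0.27 for Ccl2, -0.71 to 0.21 for Ccl4 and -0.43 to 0.10 for Ccl7. The medians of the lists also turned with 1 array left out, over -0.03 to 0.08 for G proteins and effectors, -0.06 to 0.19 for signal limiters and -0.35 to 0.10 for other chemokines. The cause was not tested.

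Over all probe sets 0 passed an adjusted p under 0.05 with limma and 1 with the methods' t-test. At an unadjusted p under 0.05 there were 685, against 366 when only the 12876 probe sets above background were tested, 1365 with the array set block and 428 to 1005 with 1 array left out. Groups without overlap numbered 1818, and 1025 above background. Deviations from the group means correlated at -0.08, -0.23 and -0.65 between equally numbered arrays. These deviations hold the first principal component, on which CCL6 replicate 3 scored -40.7 and unstimulated replicate 3 scored 46.6. The labels do not say whether equal numbers were prepared together, and this was not tested. A replicate block gave 474 probe sets at an unadjusted p under 0.05. In the deviations every array correlated best with another number than its own. Ccl6 and Ccl9 alone were above background under 3 other background definitions, 2 normalizations and 6 fits with 1 array left out.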
